A study of Mus musculus with 6 samples.

Results

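The genes described here are the transcription factor gene NFE2L2, which encodes NRF2, its repressor gene KEAP1, and 7 genes of antioxidant defence that NRF2 is known to activate. They were chosen by exact symbol, and all 9 were found among the 23284 gene symbols of the expression table. RNA was measured by sequencing in 6 subcutaneous tumours that grew in athymic nude mice of STS26T cells, an established human line from a malignant tumour of the peripheral nerve sheath. In the control arm, 3 tumours came from mice given an IgG control. In the other arm, 3 came from mice given TRC105 and M1043, monoclonal antibodies against the human and the mouse form of endoglin (ENG), a co-receptor of the TGF-beta family. Antibodies were injected intraperitoneally for 3 weeks, at 10 mg/kg and 2 doses per week, in both arms. All tumours derive from 1 cell line in hosts that lack mature T cells, and the labels do not say whether tumours whose codes share a number (IgG control 2 and 3, anti-ENG 1 and 2) came from 1 animal.

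NRF2 is a basic leucine zipper factor that is controlled mainly through its protein. KEAP1 holds it for ubiquitination by a CUL3 ligase, and oxidants or electrophiles that modify cysteines of KEAP1 let NRF2 build up, pair with a small MAF protein and bind antioxidant response elements. Its classical targets make and use reduced glutathione and thioredoxin: SLC7A11 imports cystine, GCLC and GCLM form the enzyme that starts glutathione synthesis, TXNRD1 reduces thioredoxin, SRXN1 repairs peroxiredoxins, NQO1 reduces quinones and HMOX1 breaks down haem. RNA levels of NFE2L2 and KEAP1 therefore need not follow NRF2 activity, and protein was not measured here.

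Values are FPKM, fragment counts scaled to transcript length and to depth, so levels of different genes can be compared per length. How depth was scaled across the tumours is not stated. Relative depth, read from the value of single fragments in the lowest genes, ran from 1 in IgG control 1 to 1.46 in anti-ENG 1, and total depth is unknown. Those 2 tumours lay at the opposite ends of the first principal component of all tested genes, which held 44.6% of the variance, so results that rest on either are also given without it. ENG RNA, which an antibody need not change, averaged 29.0 ± 10.4 FPKM in IgG tumours and 23.9 ± 7.39 FPKM in anti-ENG tumours (mean ± SD of 3). Of the Schwann and neural crest markers, SOX10 and S100B were at 0.188 FPKM or lower in each tumour, while NES, SOX9, TWIST1 and PMP22 were at 19.1 FPKM or higher. Human red cell genes HBA1, HBA2 and HBB were listed at 0 in all 6 tumours.

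The 9 genes did not move as a block between the arms, and none passed the test. SRXN1, TXNRD1 and SLC7A11 had higher values in each anti-ENG tumour than in any IgG tumour, by 1.39-fold, 1.35-fold and 1.76-fold of the means. NQO1, HMOX1, GCLC, GCLM and KEAP1 overlapped between the arms, and NFE2L2 had a 1.14-fold lower mean with overlapping values. By limma on log2(FPKM + 1), 0 of the 8 members tested had a Benjamini-Hochberg adjusted p under 0.05, and the share called over all 12586 tested genes was 0%. At an unadjusted p under 0.05 there was 1 of 8, SRXN1, against 9.17% of all tested genes (5.56% higher and 3.61% lower under anti-ENG). SLC7A11, with a mean of 0.990 FPKM over the 6 tumours, fell just under the required mean of 1 FPKM and was fitted without that filter.

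**Figure D1:**
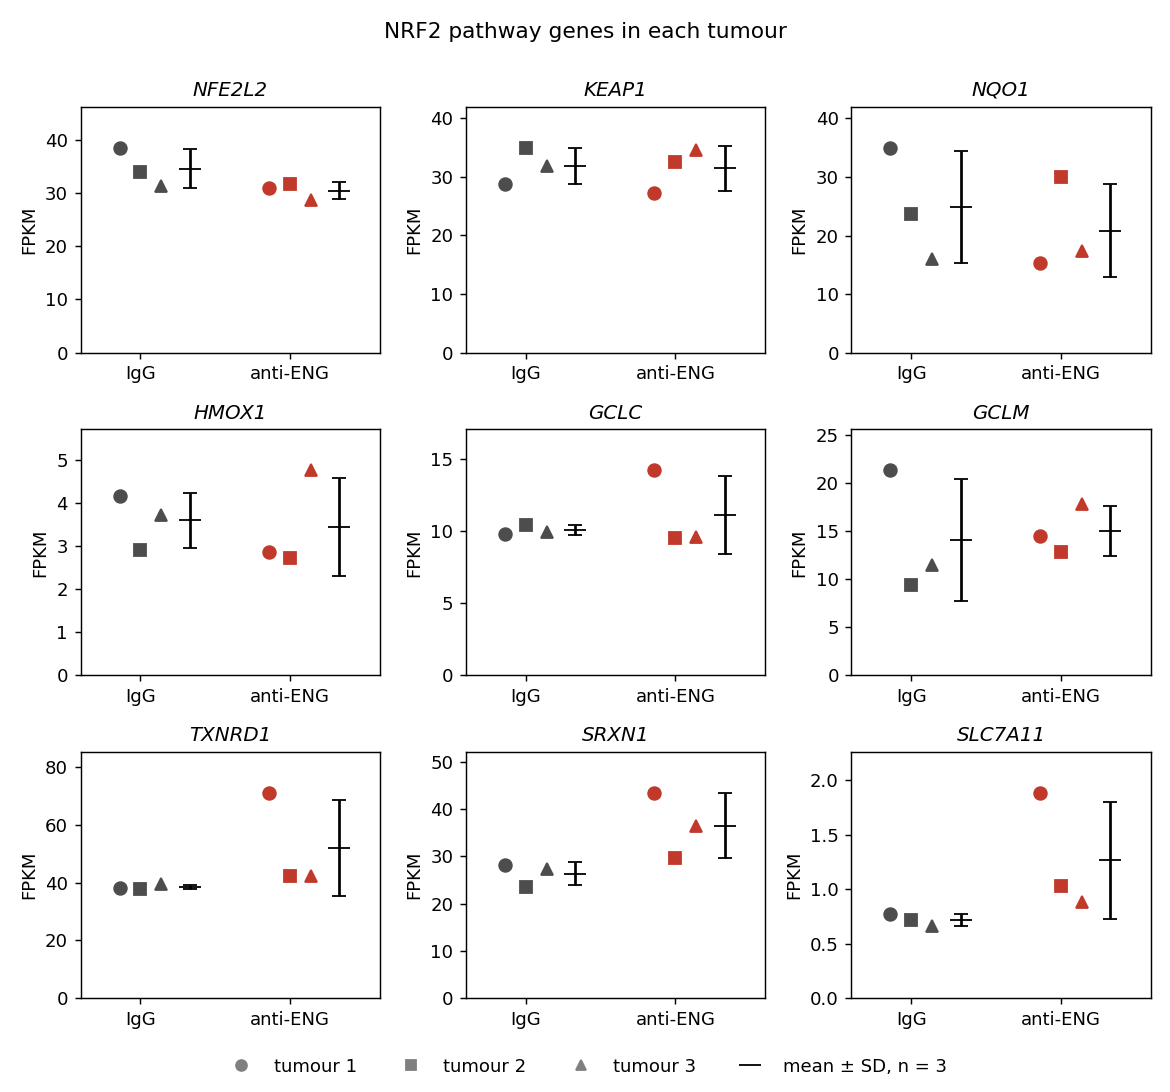
FPKM of each gene (vertical axes, linear and from 0) in 3 IgG tumours (grey) and 3 anti-ENG tumours (red), with the tumour number given by the symbol and the mean and SD of each arm at its right. In TXNRD1, SRXN1 and SLC7A11 the lowest anti-ENG tumour lies above the highest IgG tumour, and anti-ENG 1 is the highest of all 6.

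The regulators were at similar RNA levels. In order of tumour number, NFE2L2 was at 38.5, 33.9 and 31.3 FPKM under IgG, and at 30.9, 31.7 and 28.6 FPKM under anti-ENG. IgG control 1 was the highest, and the arms overlapped only through IgG control 3 and anti-ENG 2. The log2 fold change of NFE2L2 was -0.18 (95% interval -0.45 to 0.09, limma adjusted p = 0.595). After upper quartile scaling, equal sums, quantile or cyclic loess normalization, alternatives chosen for this count after seeing the data, the 3 anti-ENG values of NFE2L2 all lay below the 3 IgG values. Under these scalings 14.6 to 17.7% of all tested genes lay apart in either direction, and equal sums moved their median log2 fold change to -0.10. The limma adjusted p ran from 0.493 to 0.868 over 19 alternatives, and without IgG control 1 the log2 fold change was -0.0991.

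KEAP1, the substrate adaptor of the ligase, had 28.8, 35.0 and 31.8 FPKM in the IgG tumours and 27.2, 32.6 and 34.5 FPKM in the anti-ENG tumours. Each arm held both low and high tumours, and the log2 fold change was -0.02 (95% interval -0.33 to 0.29, limma adjusted p = 0.959). The ratio of NFE2L2 to KEAP1 was 1.33, 0.968 and 0.985 under IgG and 1.14, 0.971 and 0.828 under anti-ENG. This ratio does not depend on how a tumour is scaled. Its arms overlapped (exact permutation test, two-sided, p = 0.5), and by this test 3 tumours against 3 cannot give a p below 0.1.

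TXNRD1 and SRXN1, the members on the thioredoxin and peroxiredoxin side, and SLC7A11 had arms that lay apart. TXNRD1, the cytosolic selenoenzyme that reduces thioredoxin with NADPH, had 38.1, 38.0 and 39.4 FPKM under IgG and 71.1, 42.4 and 42.5 FPKM under anti-ENG. The IgG tumours had a coefficient of variation of 2.04%, while anti-ENG 1 stood well above its arm and the other 2 anti-ENG tumours lay just above the IgG range. The log2 fold change was 0.38 (SE 0.20, 95% interval -0.09 to 0.85, limma adjusted p = 0.548), higher in 3 of 3 anti-ENG tumours. Without anti-ENG 1 it was 0.14 (adjusted p = 0.849), and when the FPKM of each tumour were set to equal sums the arms of TXNRD1 overlapped.

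SRXN1, sulfiredoxin, the enzyme that reduces hyperoxidized peroxiredoxins, had 28.3, 23.5 and 27.2 FPKM in the IgG tumours and 43.4, 29.7 and 36.3 FPKM in the anti-ENG tumours. Here anti-ENG 3 was also clearly above the IgG range, and anti-ENG 2 was closest to it. The log2 fold change was 0.44 (SE 0.16, 95% interval 0.08 to 0.81), with an unadjusted limma p of 0.0244 and an adjusted p of 0.529. Ranked by p, SRXN1 was at position 514 of the 12586 tested genes. Its log2 fold change was 0.31 without anti-ENG 1 and between 0.31 and 0.58 over the 19 alternatives. Its arms were apart under each of 4 scalings, where 14.6 to 17.7% of all tested genes lay apart in either direction.

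SLC7A11, the cystine-glutamate exchanger xCT, was the gene of lowest level. It had 0.772, 0.719 and 0.659 FPKM under IgG and 1.88, 1.03 and 0.881 FPKM under anti-ENG. Again anti-ENG 1 was highest, and the lowest anti-ENG tumour exceeded the highest IgG tumour by little. In the fit without the filter the log2 fold change was 0.37 (SE 0.17, limma adjusted p = 0.639), and it was 0.19 without anti-ENG 1. With a pseudocount of 0.1 in place of 1 it was 0.67, and with a pseudocount of 5 it was 0.13, since the added constant compresses changes at this level. Its exact two-sided permutation p, like those of TXNRD1 and SRXN1, was 0.1, the smallest possible.

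Among the 8 tested members, 2 had arms that did not overlap, both higher under anti-ENG, against 10.6% of all tested genes that lay apart in this direction, 6.75% in the other and 17.3% in either. With SLC7A11 included, 3 of 9 lay apart, all higher, against 14.1% of the 18915 genes above 0 in any tumour (7.74% higher and 6.37% lower). These genes were of unequal expression, and the background itself differed with level. The median log2 fold change of tested genes was -0.076 in decile 1, the lowest by expression, and 0.16 in decile 10. TXNRD1 lay in decile 9, where the median was 0.097, and SRXN1 in decile 8, where it was 0.033. The median over the 8 tested members was 0.04, beside 0.0065 over all tested genes, with 4 members above 0 and 4 below, where 51.2% of all tested genes were above 0.

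**Figure D2:**
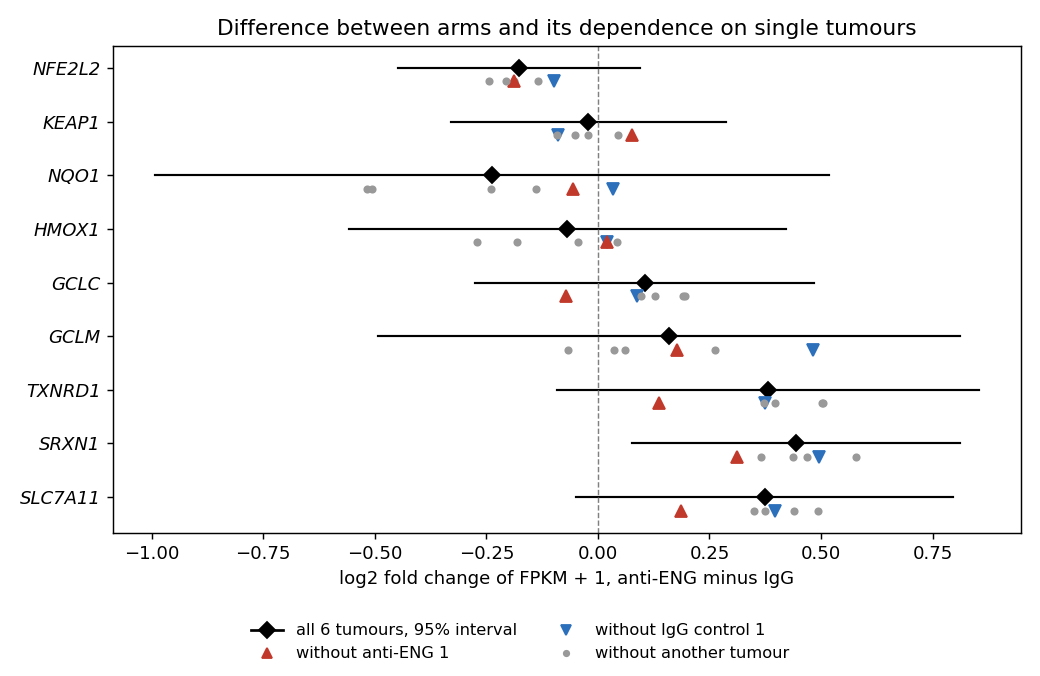
Log2 fold change of FPKM + 1, anti-ENG minus IgG (horizontal axis), for each gene with its 95% interval from limma (black), and the same value when 1 tumour was left out (symbols below the line). The interval of SRXN1 alone lies above 0, from 0.08 to 0.81 before adjustment. For TXNRD1 (0.14), SRXN1 (0.31) and SLC7A11 (0.19) the red triangle, without anti-ENG 1, is the lowest of that gene's symbols.

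Both subunits of glutamate-cysteine ligase overlapped between the arms. GCLC, the catalytic subunit, had 9.84, 10.5 and 9.98 FPKM under IgG and 14.2, 9.53 and 9.57 FPKM under anti-ENG. The IgG tumours again lay close together, with a coefficient of variation of 3.19%, and anti-ENG 1 alone was above them while the other 2 were below. The log2 fold change was 0.10 (95% interval -0.28 to 0.48, limma adjusted p = 0.816), and it was -0.0718 without anti-ENG 1.

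GCLM, the modifier subunit that raises the activity of GCLC, behaved differently over the same tumours. It had 21.3, 9.41 and 11.4 FPKM under IgG and 14.5, 12.8 and 17.8 FPKM under anti-ENG. IgG control 1 was the highest of all 6, and the other 2 IgG tumours were the lowest. For GCLM the log2 fold change was 0.16 (95% interval -0.49 to 0.81, limma adjusted p = 0.837), 0.48 without IgG control 1 and -0.0673 without IgG control 2. The GCLM to GCLC ratio was 2.17, 0.901 and 1.15 under IgG and 1.02, 1.34 and 1.86 under anti-ENG. The anti-ENG ratios lay inside the wider IgG range (exact two-sided permutation p = 0.9, smallest possible 0.1).

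NQO1, the quinone reductase most often used as a readout of NRF2, varied more between tumours of an arm than between arms. It had 35.0, 23.6 and 16.1 FPKM under IgG and 15.3, 29.9 and 17.3 FPKM under anti-ENG. The highest and the lowest tumour differed by 2.29-fold, and each arm had a coefficient of variation near that of the other, 38.3% and 38.0%. Anti-ENG 1, the tumour of highest TXNRD1, SRXN1, SLC7A11 and GCLC, had the lowest NQO1. Anti-ENG 1 and 2, which share a code number, differed by 1.96-fold. Its log2 fold change was -0.24 (95% interval -0.99 to 0.52, limma adjusted p = 0.791), and it was 0.0335 without IgG control 1.

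HMOX1, haem oxygenase 1, was low, at 4.17, 2.91 and 3.73 FPKM under IgG and 2.85, 2.73 and 4.76 FPKM under anti-ENG. Anti-ENG 3 was the highest and anti-ENG 2 the lowest of the 6. The log2 fold change was -0.07 (95% interval -0.56 to 0.42, limma adjusted p = 0.915), above 0 when IgG control 1, anti-ENG 1 or anti-ENG 2 was left out. Macrophages are a known source of HMOX1, and of 12 genes listed as macrophage markers 4 reached a mean of 1 FPKM. The summed level of all 12 was 74.3 to 129.8 FPKM under IgG and 84.8 to 111.2 FPKM under anti-ENG, mostly from CD68, which tumour cells can also express. The others that reached 1 FPKM were EMR1 (mean 9.84 FPKM over the 6 tumours), LYZ (2.03) and CSF1R (1.79). EMR1 is a marker of macrophages in the mouse and need not mark human ones, so the list does not measure macrophage content. CD163 was at 0.0288 FPKM or lower and MRC1 was listed at 0 in all 6 tumours. Reads of mouse host RNA can be counted where they match human transcripts, and their part in HMOX1 was not tested.

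**Figure D3:**
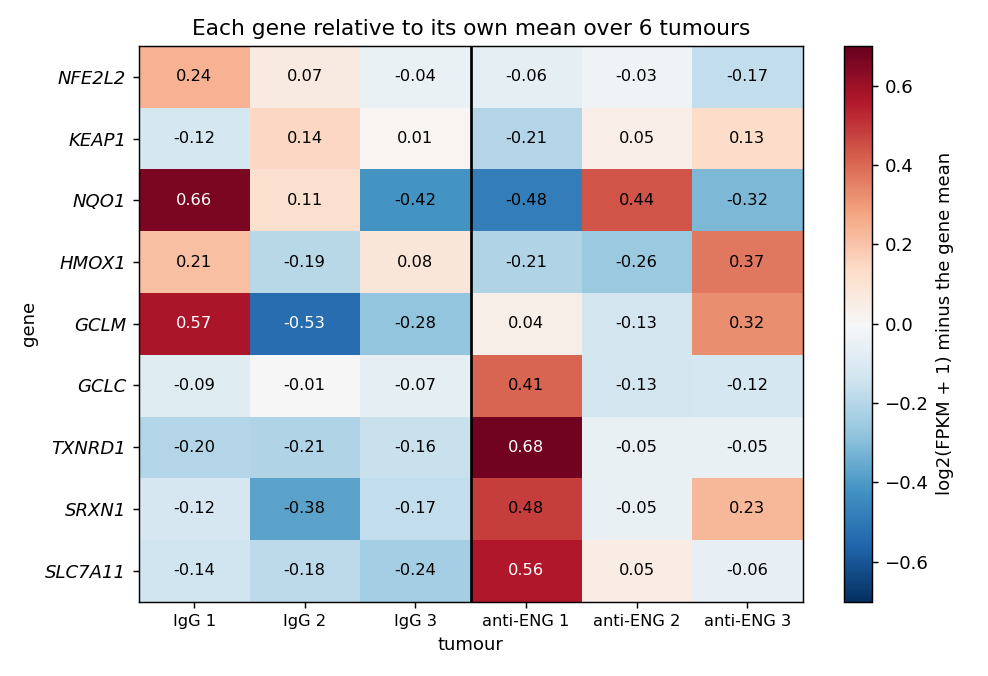
Each cell gives log2(FPKM + 1) of a gene (rows) in a tumour (columns) minus that gene's mean over the 6 tumours, with IgG at the left of the black line and anti-ENG at the right. The column of anti-ENG 1 is positive for TXNRD1 (0.68), SLC7A11 (0.56), SRXN1 (0.48) and GCLC (0.41) and negative for NQO1 (-0.48), and that of IgG control 1 is positive for NQO1 (0.66) and GCLM (0.57).

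The tumours thus differed in which of the genes they had at a high level. Anti-ENG 1 was the highest tumour for 4 of the 9 genes and the lowest for 2, KEAP1 and NQO1. IgG control 1 was the highest for 3, NFE2L2, NQO1 and GCLM, and the lowest for none. The fibroblast markers also varied between these tumours: their summed level was 794.9 to 1501 FPKM under IgG and 353.9 to 933.0 FPKM under anti-ENG, with 7 of 8 below 0 by log2 fold change. The lowest sum was that of anti-ENG 1, and the median log2 fold change of this list was -0.81 in all tumours, -0.42 without anti-ENG 1 and -0.13 without both that tumour and IgG control 1. These are values of human genes, while fibroblasts of the host are mouse cells, and the handling of mouse reads is not stated. The list therefore does not measure fibroblast content. In bulk RNA, fewer cells of a type and less RNA per cell cannot be told apart, and the part of other cells in the results on these 9 genes was not tested.

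By level, TXNRD1 came first with a mean of 45.2 FPKM over the 6 tumours, followed by NFE2L2 (32.5), KEAP1 (31.6), SRXN1 (31.4), NQO1 (22.9), GCLM (14.5), GCLC (10.6), HMOX1 (3.52) and SLC7A11 (0.990). Only the last 2 steps of this order separated the ranges: GCLC was above HMOX1, and HMOX1 above SLC7A11, with no overlap in 6 of 6 tumours. TXNRD1 was above NFE2L2 in 5 of 6 tumours, GCLM above GCLC in 5 of 6, and NFE2L2, KEAP1 and SRXN1 changed places from tumour to tumour. The 7 targets together summed to 137.5, 108.6 and 108.5 FPKM under IgG and 163.2, 128.1 and 129.2 FPKM under anti-ENG. TXNRD1 made up 27.7 to 43.6% of this sum and SRXN1 20.6 to 28.1%.

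Genes around NRF2 split between directions. Of 15 partners and repressors, 14 were tested, 7 above 0 and 7 below, where 51.2% of all tested genes were above 0. The median log2 fold change was 0.0099, or -0.10 with equal sums, which also moved the median of all tested genes to -0.10. Here 0 passed the adjusted threshold, and 3 lay apart as higher, against 10.6% of all tested genes. NFE2L3, a related CNC factor, had 27.1 ± 2.07 FPKM in IgG tumours and 36.2 ± 1.47 FPKM in anti-ENG tumours (SD, n = 3). Its log2 fold change was 0.41 (limma adjusted p = 0.529), and its arms did not overlap. RBX1, the RING subunit of the CUL3 ligase, had 0.26, and PGAM5, a mitochondrial phosphatase that binds KEAP1, had 0.25, both also with arms apart. With equal sums these values were 0.145 for RBX1 and 0.13 for PGAM5. BACH1, which competes with NRF2 at HMOX1 and other target sites, had -0.23 (limma adjusted p = 0.565), or -0.13 without IgG control 1 and -0.10 without both that tumour and anti-ENG 1.

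Other genes that NRF2 is known to activate were tested in 25 of 30 cases. Of these 18 were above 0 and 7 below, 7 had higher values in each anti-ENG tumour than in any IgG tumour, and 0 passed. Of all tested genes 51.2% were above 0 and 10.6% lay apart as higher. The list's median log2 fold change was 0.16, or 0.037 with equal sums and 0.083 with cyclic loess normalization. The median of all tested genes was 0.0065, or -0.10 with equal sums and -0.0065 with cyclic loess normalization. Of the list's tested genes 7 were in expression decile 10, where all genes had a median of 0.16. PIR, pirin, had 4.16 ± 0.593 FPKM in IgG tumours and 6.02 ± 0.537 FPKM in anti-ENG tumours (SD, n = 3), with a log2 fold change of 0.45. AKR1C1, an aldo-keto reductase whose near-identical paralogues can share its reads, had 0.76 with overlapping arms. Each had a limma adjusted p of 0.529.

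Of the substrates of these enzymes, TXN and PRDX1 were higher in each anti-ENG tumour than in any IgG tumour. Over all tested genes 10.6% lay apart in this way. The other peroxiredoxins were named after their values were seen. PRDX3, PRDX4 and PRDX5 also lay apart as higher, at log2 fold changes of 0.51, 0.30 and 0.36. PRDX2 overlapped (39.8 to 62.0 FPKM under IgG, 51.4 to 71.2 under anti-ENG), as did PRDX6. Thioredoxin, TXN, had 237.8, 233.5 and 205.0 FPKM under IgG and 357.7, 330.0 and 272.4 FPKM under anti-ENG. PRDX1, a peroxiredoxin, had 201.9, 202.5 and 198.9 FPKM under IgG and 306.8, 258.0 and 264.7 FPKM under anti-ENG. In both genes the arms were clearly apart, at log2 fold changes of 0.50 and 0.45 (limma adjusted p = 0.529 for each). Cyclic loess normalization brought these to 0.28 and 0.25. Both genes have processed pseudogenes, and no source used here says how reads were split among such copies.

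Of 23 thioredoxin, peroxiredoxin and superoxide genes, including TXN and PRDX1, 22 were tested. Of these 17 were above 0 and 5 below, 8 lay apart, all 8 higher under anti-ENG, and 0 passed the adjusted threshold, where 51.2% of all tested genes were above 0 and 10.6% lay apart as higher. The list median was 0.22, beside 0.0065 over all tested genes, and 8 of the 22 were in expression decile 10. All genes of that decile had a median of 0.16. The list median was 0.12 with equal sums, a scaling that moved the median of all tested genes to -0.10. With cyclic loess normalization the list median was 0.15, beside -0.0065 over all tested genes, and without anti-ENG 1 it was 0.23. SOD1, the cytosolic superoxide dismutase, had a log2 fold change of 0.34, or 0.17 after cyclic loess normalization, and TXNL1, a thioredoxin-like protein, 0.42.

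Enzymes that make, use or break down glutathione were tested in 37 of 44 cases. Here 24 were above 0 and 13 below, 8 lay apart as higher and 2 as lower, and 0 passed. Over all tested genes the shares were 51.2% above 0, 10.6% apart as higher and 6.75% as lower. The list median was 0.15, or 0.031 with equal sums and 0.077 with cyclic loess normalization. Beside these, the median of all tested genes was 0.0065, -0.10 and -0.0065. In this list 7 tested genes were in expression decile 10, where all genes had a median of 0.16. GPX1, a glutathione peroxidase, had 188.8 ± 15.9 FPKM in IgG tumours and 242.2 ± 13.0 FPKM in anti-ENG tumours (SD, n = 3). GLRX3, a glutaredoxin of iron-sulfur handling, had a log2 fold change of 0.61, CHAC2, which degrades glutathione, 0.48, and GSTO1, a glutathione transferase, 0.46. Each had a limma adjusted p of 0.529. After cyclic loess normalization GPX1 was at 0.16 and GSTO1 at 0.30. Without both anti-ENG 1 and IgG control 1, GLRX3 was at 0.33 and CHAC2 at 0.24.

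**Figure D4:**
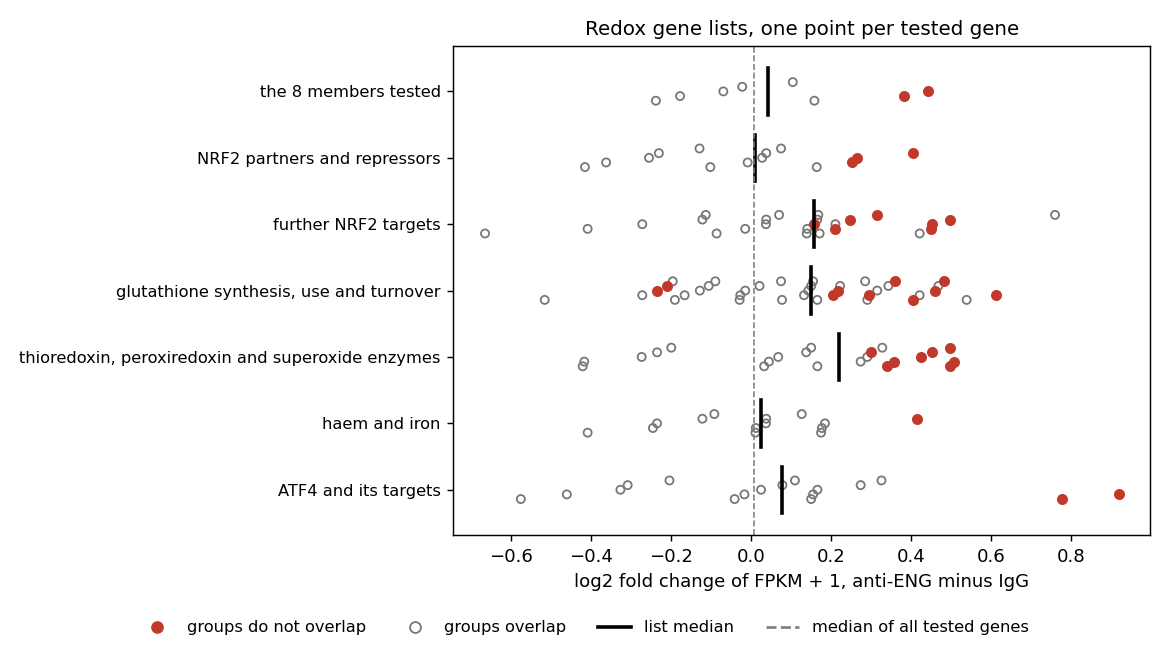
Log2 fold change of FPKM + 1, anti-ENG minus IgG (horizontal axis), with 1 point per tested gene in the 8 tested members and 6 lists of related genes, filled where the arms do not overlap. Black bars are list medians, from 0.0099 for NRF2 partners to 0.22 for thioredoxin and peroxiredoxin genes, and the dashed line is the median of all tested genes, 0.0065.

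Of 14 tested genes of haem and iron 9 were above 0 and 5 below, where 51.2% of all tested genes were above 0. The median was 0.02, or -0.095 with equal sums, where that of all tested genes was -0.10. HMOX2, the constitutive relative of HMOX1, had 11.97 ± 0.960 FPKM in IgG tumours and 16.3 ± 1.598 FPKM in anti-ENG tumours (SD, n = 3). Its level was thus above that of HMOX1, and its log2 fold change was 0.41 (limma adjusted p = 0.529) with arms apart. SLC7A11 is also a target of ATF4, the factor of the amino acid response. Of 17 genes of that response 10 were above 0 and 7 below (median 0.08, or -0.043 with equal sums). Over all tested genes 51.2% were above 0, and the median with equal sums was -0.10. The serine synthesis gene PSAT1 had 6.92, 10.3 and 13.0 FPKM under IgG and 24.1, 15.9 and 19.0 FPKM under anti-ENG, and its log2 fold change was 0.92, or 0.55 without both anti-ENG 1 and IgG control 1. ASNS, asparagine synthetase, had 0.78, or 0.41 without anti-ENG 1 and 0.16 without both that tumour and IgG control 1, and DDIT3, a pro-apoptotic factor downstream of ATF4, had -0.46, or -0.29 without IgG control 2. None passed, and each of these 3 had a limma adjusted p of 0.529.

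The genes whose levels followed a member most closely over the 6 tumours were listed by Pearson's r of log2(FPKM + 1), as a description. For TXNRD1 they were HSPD1, KIF20B and CCDC25, each at an r of 0.996, and 671 of the 11446 genes searched for it had an r above 0.9. For SLC7A11 they were RPL37A (0.998), MED11 (0.997) and RNF20 (0.997), with 632 genes above 0.9. HMOX1 was closest to CPD (0.997), MANF (0.992) and CXXC1 (0.992), and NQO1 to GALK2 (0.991), PLA2G15 (0.990) and LOXL3 (0.986). The tumours are few and share their cell line, and 1 tumour, anti-ENG 1, sets much of the pattern of TXNRD1 and SLC7A11.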

How the data were processed

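The authors deposited 1 table of FPKM values per gene symbol, 1 column per tumour. The submitters' processing notes name Cuffnorm, Cufflinks 2.2.1, TopHat2 2.0.10, SAMtools 0.1.1.9, FastQC 0.10.1 and Bowtie 1.0.0, and the human build GRCh37 (hg19), with no order or role. No source used here gives strand use, scaling across samples or handling of mouse reads. The labels name more than 1 library kit and sequencer without assigning them to samples, so kit and arm cannot be told apart.

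Groups came from sample titles. Limma 3.58.1 (R 4.3.3, variance trend, no covariate) compared log2(FPKM + 1) in 12586 genes whose mean reached 1 FPKM, two-sided, with Benjamini-Hochberg adjustment at 0.05; the step was tested on simulated data. Ratios used exact permutation tests. Nothing says that tumours came from separate animals, so p-values measure the spread between these samples.

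Members and lists were chosen with earlier results of these data known. From each list the text names at most 4 genes of smallest p, beside defining markers and the peroxiredoxins. MSRB1 was read as SEPX1. For 4 members it names the 3 genes of highest r. The lists overlap in some genes.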

Additional observations from a re-analysis of the deposited data

How the results depend on the processing

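No gene was called in any setting tried (limma, 0 genes; smallest adjusted p 0.261 over the alternatives; 662 to 1566 genes at an unadjusted p under 0.05), and NFE2L2, TXNRD1, SRXN1 and SLC7A11 kept their direction in each. The median of the tested members was -0.0732 with equal sums, where that of all tested genes was -0.1003. With 1 tumour left out, the members' median ran from -0.0272 to 0.1191. It was 0.1194 with IgG control 1 and anti-ENG 1 both left out (chosen after seeing the data for the counts of arms apart). Leaving out both of those tumours also gave 5 members with arms apart (38% of tested genes), and log2 fold changes of 0.0082 for KEAP1, 0.2155 for NQO1, 0.108 for HMOX1 and -0.0883 for GCLC. The sign of HMOX1 turned with quantile normalization (0.0102) and sample weights (0.0478), that of GCLC with equal sums (-0.0070), and with tumours of one code number averaged KEAP1 was at 0.0466 and the log2 GCLM to GCLC ratio at -0.0076. Leaving out 1 tumour gave ranges of -0.0905 to 0.0759 for KEAP1, -0.5174 to 0.0335 for NQO1, -0.2702 to 0.0439 for HMOX1, -0.0718 to 0.1942 for GCLC, -0.0673 to 0.4825 for GCLM and -0.2064 to 0.4269 for the log2 GCLM to GCLC ratio. The causes were not tested.

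With the replicate block 0 genes were called and 842 had an unadjusted p under 0.05; SRXN1 had an adjusted p of 0.641. Same-numbered tumours correlated at -0.329, 0.194 and 0.037 in their deviations and 0 of 3 matched its own number best. With 3 tumours per arm this cannot decide whether the numbers pair the tumours. A minimum of 5 FPKM gave no value for HMOX1 and SLC7A11. SLC7A11, near 1 FPKM, is the member of lowest level, and without counts the fragments behind each value are unknown.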
